A study of Mus musculus with 24 samples.

Results

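The methylation of 10 genes that mark pluripotent cells was followed in 3 adult mouse tissues. The genes were Pou5f1 (also called Oct4), Nanog, Zfp42 (Rex1), Dppa2, Dppa3, Dppa4, Dppa5a, Tdgf1, Lin28a and Sall4. They were chosen by name, and every tile of 100 bp from 5000 bp before the RefSeq start of each gene to its end was taken. This gave 229 of the 1005908 tiles measured in any tissue and 185 of the 758685 tiles measured in all 3 tissues. DNA methylation had been measured by enhanced reduced representation bisulphite sequencing (RRBS), which reads CpGs near restriction sites, on genomic DNA of frozen sections of liver, brain and heart. All mice were of the inbred strain C57Bl/6J, 24 weeks old and without a named treatment or allele. There were 12 liver libraries (6 male, 6 female), 6 brain libraries (3 male, 3 female) and 6 heart libraries (3 male, 3 female), and the brain and heart libraries came from mice that also gave liver. The columns of levels could be tied to a tissue but not to a mouse or a gender, so tissues were compared and genders were not.

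These genes are active in the early embryo, in embryonic stem cells and, for several of them, in germ cells, and most are silent in somatic tissue. Pou5f1 and Nanog encode transcription factors at the centre of the pluripotency network. The other genes encode a zinc finger factor often used as a marker of naive cells (Zfp42), a pair of SAP domain proteins that act on chromatin (Dppa2, Dppa4), a maternal factor that protects methylation in the zygote (Dppa3), an RNA-binding protein (Dppa5a), a co-receptor for Nodal (Tdgf1), an RNA-binding protein that blocks maturation of let-7 microRNAs (Lin28a) and a zinc finger factor of stem and germ cells (Sall4). Methylation of CpGs around a gene's start is a known feature of stably silenced genes of this kind, whereas starts rich in CpGs usually stay unmethylated whether or not the gene is active.

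The sequences of 8 tiles are shown because the results turn on them. They are the forward strand of mm10, with each CpG in capitals. The first set is the Pou5f1 tile in the coding part of the first exon, which had the lowest level of that promoter, and the Pou5f1 intron tile with the widest difference between liver and heart.

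Pou5f1 first exon, chr17:35506101-35506200: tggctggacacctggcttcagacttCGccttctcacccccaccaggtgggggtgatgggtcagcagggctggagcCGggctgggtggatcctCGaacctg
Pou5f1 intron, chr17:35509601-35509700: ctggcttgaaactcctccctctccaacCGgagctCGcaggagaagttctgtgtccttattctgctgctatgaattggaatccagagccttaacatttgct

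The second set is a pair of Dppa3 tiles, 226 and 826 bp after the start, that set different tissues apart, and the Dppa4 intron tile with a low level in heart.

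Dppa3 first exon and intron, chr6:122626601-122626700: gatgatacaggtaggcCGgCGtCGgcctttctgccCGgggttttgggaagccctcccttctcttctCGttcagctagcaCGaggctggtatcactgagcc
Dppa3 intron, chr6:122627201-122627300: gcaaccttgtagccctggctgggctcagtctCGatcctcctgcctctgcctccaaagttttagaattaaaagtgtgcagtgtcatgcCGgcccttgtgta
Dppa4 intron, chr16:48284401-48284500: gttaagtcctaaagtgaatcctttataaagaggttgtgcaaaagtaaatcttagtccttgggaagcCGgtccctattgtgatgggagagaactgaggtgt

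The third set is the Tdgf1 tile upstream of the gene with the widest difference of all 185 shared tiles, the Lin28a intron tile that was higher in liver than in both other tissues, and the Lin28a tile near the start with the lowest level.

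Tdgf1 upstream, chr9:110948101-110948200: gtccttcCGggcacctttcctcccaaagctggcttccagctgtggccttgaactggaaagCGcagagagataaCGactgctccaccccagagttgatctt
Lin28a intron, chr4:134011601-134011700: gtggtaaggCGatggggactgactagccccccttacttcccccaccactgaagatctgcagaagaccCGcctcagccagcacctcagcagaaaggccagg
Lin28a near the start, chr4:134018001-134018100: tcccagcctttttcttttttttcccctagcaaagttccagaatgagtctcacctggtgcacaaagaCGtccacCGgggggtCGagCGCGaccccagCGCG

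The number of reads behind each level is unknown, and the tiles of these genes hold between 1 CpG, as in the Dppa4 intron tile, and 17 CpGs. Mean levels over all tiles of a library ran from 65.7 to 67.0% in liver, from 65.4 to 68.2% in brain and from 61.1 to 61.8% in heart. Over the tiles measured in all 3 tissues, the median difference was 0.28 points between liver and brain, 3.50 points between liver and heart and 3.00 points between brain and heart, with heart the lower. Of 9 promoters or bodies measured for liver marker genes, all 9 were lowest in the liver table, including the body of Alb, the gene of serum albumin, at 20.7% against 89.0% in brain and 77.9% in heart. Of 10 measured for heart marker genes, 5 were lowest in heart, and of 16 measured for brain marker genes, 9 were lowest in brain. These are bulk tissues, in which a change in the share of a cell type and a change of methylation within cells cannot be told apart. Tissue and any batch of library preparation cannot be told apart either, and libraries of the same mouse were treated as independent.

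Tissue differences were fitted with limma over all 758685 shared tiles, and a tile was called where the adjusted p was at most 0.01 and the tissues were at least 25 percentage points apart. Of the 185 tiles of the 10 genes, 36 were called in at least 1 of the 3 comparisons, against 18.9% of all tiles. Between liver and brain, 9 tiles were higher in liver, against 5.04% of all tiles, and 4 were higher in brain, against 4.76% of all tiles. Between liver and heart, 22 tiles (11.9%) were higher in liver, against 7.94% of all tiles, and 1 was higher in heart, against 2.87%. Between brain and heart, 18 tiles (9.73%) were higher in brain, against 7.71% of all tiles, and none was higher in heart, against 1.75%. Each library was then centred on its median. In every tile alike, this moved the liver and heart difference by 8.95 points and the brain and heart difference by 7.98 points. The median differences over all tiles were smaller, at 3.50 and 3.00 points. After centring, the calls were 14 against 1 between liver and heart and 6 against 1 between brain and heart. Over all tiles these centred calls were close to even. Between liver and heart, 4.01% were higher in liver and 4.29% higher in heart. In the brain and heart comparison, 3.54% were higher in brain and 3.62% higher in heart. As a share of the 185 tiles, the 14 higher in liver exceeded that of all tiles, and the 6 higher in brain did not. Counting both directions, 8.11% of the 185 tiles were called between liver and heart, against 8.3% of all tiles. For brain and heart the share was 3.78%, against 7.17% of all tiles. Leaving out tiles of which more than 50% of the 31-base words occur more than once in mm10, a choice made after the data were seen, 13, 19 and 14 tiles were called in the order above, in place of 13, 23 and 18. The called tiles were spread unevenly over the genes. Dppa3 had 10 of its 11 shared tiles called, Lin28a 10 of 45, Sall4 6 of 48, Pou5f1 4 of 16, Tdgf1 3 of 9, Dppa4 2 of 11 and Nanog 1 of 8, while none of the 21 Zfp42, 11 Dppa2 and 5 Dppa5a tiles was called. Dppa3 alone held 9 of the 18 tiles higher in brain than in heart. Of the 22 tiles higher in liver than in heart, Lin28a held 7 and Dppa3 held 6.

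For each gene the tiles within 1000 bp of the start were averaged per library as its promoter, and the tiles further in as its body. A promoter or body was called where the adjusted p over all genes was at most 0.01 and the tissues were at least 10 points apart. Of the 8 promoters with shared tiles, 1 was higher in liver than in brain (5.13% of all 18003 promoters) and none was higher in brain (5.72%). Against heart, 4 promoters were higher in liver (8.91% of all) and 3 were higher in brain (9.04% of all), and none was higher in heart (3.07% and 1.74%). Promoters that are unmethylated in every tissue cannot reach 10 points, and among the 3685 promoters with a mean level between 30 and 90% 36.2% were higher in liver than in heart and 10.9% the other way, 35.9% were higher in brain than in heart and 6.7% the other way, and 18% were higher in liver than in brain and 18.3% the other way. Of the 9 bodies with shared tiles, none was higher in liver than in brain (10% of all 18429 bodies) and 1 was higher in brain (8.34%). There were 3 bodies higher in liver than in heart (22.4% of all) and 3 higher in brain than in heart (18.5%), and none was higher in heart (4.68% and 2.53%). With centred libraries, 2 bodies were called higher in liver than in heart (7.35% of all, against 9.8% higher in heart) and 2 higher in brain than in heart (6.41% of all, against 7.66%).

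**Figure D1:**
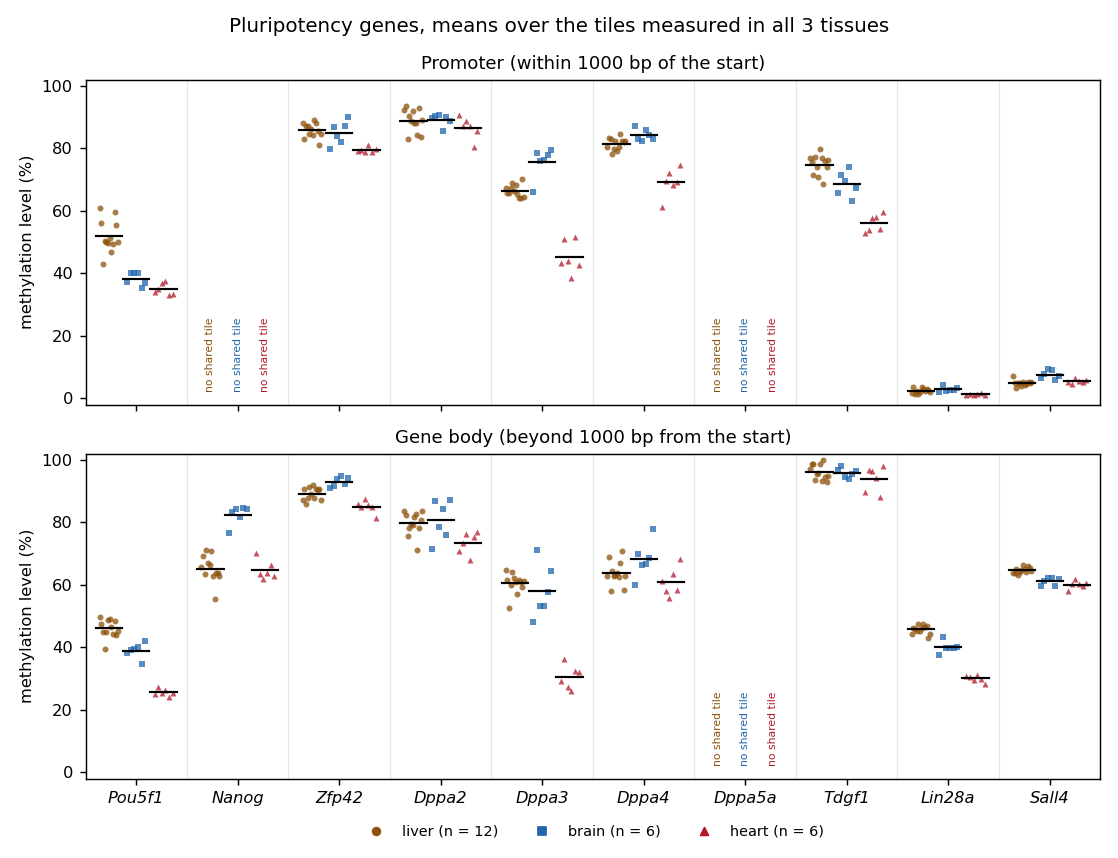
Methylation level (%, vertical axis) of the promoter (upper panel) and the body (lower panel) of each gene, averaged over the tiles measured in all 3 tissues. Each point is 1 library (liver n = 12, brain n = 6, heart n = 6) and each black line a tissue mean. The Lin28a and Sall4 promoters lie below 10% in every library, the Zfp42 and Dppa2 promoters at 78.9% or more, and the heart libraries of Dppa3, Dppa4 and Tdgf1 lie below all liver and brain libraries at the promoter.

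Pou5f1, on chromosome 17 from 35506032 to 35510777, was partly methylated in all tissues and highest in liver. The promoter level over 4 tiles had a lowest, median and highest library of 43.2, 50.3 and 61.0% in liver, of 35.2, 38.7 and 40.3% in brain, and of 33.1, 34.6 and 37.5% in heart. All liver libraries lay above all brain and heart libraries, while brain and heart overlapped. The mean was 52.0% ± 5.21 (SD, n = 12) in liver, 38.3% ± 2.20 (SD, n = 6) in brain and 35% ± 1.84 (SD, n = 6) in heart. Liver was higher than brain by 13.6 points (SE 1.97, adjusted p = 2.1e-06) and higher than heart by 16.9 points (SE 1.97, adjusted p = 7.4e-08), and the brain and heart difference of 3.32 points did not pass (adjusted p = 0.32). With a promoter of 2000 bp on each side the liver and brain difference was 8.69 points and was no longer called. The tile in the first exon, shown above, had a level of 33.1% ± 11.2 in liver, 14.6% ± 5.7 in brain and 12.8% ± 3.1 in heart, and a tile 618 bp after the start was the highest of the promoter at 77.7, 73.3 and 74.1%.

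The Pou5f1 body set heart apart from the other tissues. Over 9 tiles the levels were 46.1% ± 2.88 in liver, 38.9% ± 2.42 in brain and 25.6% ± 1.15 in heart, and no heart library reached the lowest brain library at 34.7%. Body methylation was higher in liver than in heart by 20.5 points (SE 1.21, adjusted p = 1.7e-13) and higher in brain than in heart by 13.3 points (SE 1.39, adjusted p = 1.0e-08). With centred libraries the brain and heart difference was 7.62 points and was no longer called. The liver and brain difference of 7.19 points (SE 1.21, adjusted p = 1.2e-05) was below the 10 points required, and was called at 10.24 points with a promoter of 2000 bp on each side and at 11.5 points with the median over tiles. The difference was widest in the last part of the gene. At the intron tile 3618 bp after the start, liver libraries had a lowest, median and highest level of 43.6, 66.7 and 71.8%, brain libraries of 25.8, 40.6 and 48.5%, and heart libraries of 7.0, 10.1 and 14.4%. Heart did not overlap with either other tissue there, and the liver and heart difference was 51.1 points (SE 4.05, adjusted p = 6.2e-11). At the tile 3418 bp after the start, which spans an exon and intron border, the mean levels were 52.2% in liver, 23.5% in brain and 8.0% in heart.

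Nanog, on chromosome 6 from 122707489 to 122714633, had few tiles near its start. No promoter tile was measured in all 3 tissues. A tile 561 bp after the start was measured in heart alone, at a mean of 28.1%. The tile 361 bp after the start was measured in brain, at 51.1, 58.7 and 68.8% (lowest, median and highest library), and in heart, where its mean was 39.5% and its highest library 46.3%. No heart library reached the lowest brain library, and in a fit of these tissues alone the difference was 19.9 points (SE 3.39, adjusted p = 4.3e-04). The body rested on 2 shared tiles near the gene's end, and was higher in brain (82.5% ± 3.08) than in liver (65.2% ± 4.29) and heart (64.8% ± 3.07). The brain excess was 17.3 points over liver (liver minus brain -17.3, SE 1.80, adjusted p = 8.3e-09) and 17.7 points over heart (SE 2.08, adjusted p = 6.9e-08). Both tiles are largely repeated sequence, with 68.6 and 60% of their 31-base words occurring more than once in mm10. Another 2 body tiles, measured in brain and heart, raised the level over 4 tiles to 87.9% and 77.0%. Between 4639 and 4439 bp before the start lay 3 neighbouring tiles, named here after their values were seen, that had their lowest mean in heart. The first of them had means of 42.4% in liver, 19.8% in brain and 6.2% in heart, and was called between liver and heart at 36.2 points (SE 2.89, adjusted p = 7.3e-11). The other two had means of 13.2 and 14.9% in liver, 10.8 and 14.1% in brain and 3.0 and 2.4% in heart and were not called.

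Zfp42 and Dppa2 were highly methylated in all libraries and had no called promoter, body or tile. The Zfp42 promoter (8 shared tiles, chromosome 8) was at 85.8% ± 2.36 in liver, 85.0% ± 3.78 in brain and 79.6% ± 0.84 in heart, and its body (13 tiles) at 89.2, 93.0 and 85.1%. With a tile measured in heart and in no other tissue, at 41.2%, the heart promoter level was 75.3%. The lowest shared Zfp42 promoter tile, 441 bp before the start, still had 68.5, 72.5 and 64.7%, and the tile with the highest mean over the 3 tissues, 941 bp before the start, had 94.0, 91.3 and 89.6%. Dppa2, on chromosome 16, had a promoter level over 2 shared tiles of 88.9% ± 3.63 in liver, 89.2% ± 1.88 in brain and 86.6% ± 3.45 in heart. These libraries overlapped in every pair of tissues, and the liver and brain difference was -0.33 points with an SE of 1.65. Among all 18003 promoters, the Dppa2 level ranked at percentile 94.6 in liver, 95.7 in brain and 96.1 in heart. The Dppa2 body, over 4 shared tiles, was lower, at 79.8% in liver, 80.8% in brain and 73.4% in heart.

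Dppa3 had the most called tiles for its number, and the pattern changed along the gene. The promoter level over 7 tiles was 64.1, 66.2 and 70.4% in liver (lowest, median and highest library), 66.0, 77.1 and 79.6% in brain and 38.5, 43.7 and 51.7% in heart. All heart libraries lay below all others, and heart was lower than liver by 21.3 points (SE 1.88, adjusted p = 5.1e-10) and lower than brain by 30.5 points (SE 2.17, adjusted p = 3.3e-11). Brain exceeded liver by less than the 10 points required (liver minus brain -9.17, SE 1.88, adjusted p = 2.1e-04), and 1 brain library at 66.0% stood below the other 5. Without that library the value was -11.1 points and was called.

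Within the Dppa3 promoter, 4 adjoining tiles from 126 to 426 bp after the start had means of 75.7 to 87.2% in liver and 72.2 to 84.9% in brain, but 39.6 to 49% in heart. At the tile 226 bp after the start, shown above, the heart libraries had a lowest, median and highest level of 34.7, 38.7 and 55.4%, whereas liver had 72.6, 81.5 and 84.6% and brain 67.7, 80.4 and 81.5%. The tile 826 bp after the start behaved otherwise, with means of 24.9% ± 8.5 in liver, 64.1% ± 8.0 in brain and 26.0% ± 10.6 in heart. There brain stood apart, at 50.7% or more in every library against 43.6% or less in liver, and the liver and brain difference was -39.2 points (SE 4.27, adjusted p = 2.3e-08). In the body, the levels over 4 shared tiles were 60.5% ± 3.22 in liver, 57.9% ± 8.47 in brain and 30.5% ± 3.83 in heart, and heart was lower than liver by 30 points (SE 2.44, adjusted p = 5.9e-11) and lower than brain by 27.4 points (SE 2.81, adjusted p = 7.5e-09). Over all body tiles of each tissue's own table (6 in liver, 8 in brain and 6 in heart) the levels were 69.4, 66.9 and 39.9%. Parts of Dppa3 exist in further copies in the genome. More than 50% of the 31-base words of the tiles 126 and 2326 bp after the start occur more than once in mm10, and the tile at 226 bp holds none that does. Without the tiles at 126 and 2326 bp, heart was lower than liver by 18.4 points and lower than brain by 30.1 points at the promoter, and by 23.7 and 27.9 points in the body.

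Dppa4, the neighbour of Dppa2 on chromosome 16, had a promoter level over 6 shared tiles of 81.5% ± 1.90 in liver, 84.3% ± 1.91 in brain and 69.1% ± 4.60 in heart. All heart libraries, up to 74.8%, lay below the lowest liver library at 78.1%. Heart was lower than liver by 12.4 points (SE 1.47, adjusted p = 1.0e-07) and lower than brain by 15.2 points (SE 1.70, adjusted p = 7.1e-08). Only 2 of the 6 tiles were called, and the other 4 had heart means of 63.9, 90, 91.5 and 93.7%. At the start itself (15 bp) the heart libraries had a lowest, median and highest level of 19.0, 38.8 and 59.6%, against 63.1, 73.2 and 84.6% in liver and 68.8, 78.8 and 94.1% in brain. At the intron tile 715 bp after the start, shown above with its single CpG, they had 27.5, 38.7 and 47.2%, against 55.6, 77.5 and 90.9% in liver and 75, 82.8 and 86.2% in brain. In a promoter of 500 bp on each side, which leaves out the second of these tiles, the differences were 7.16 and 9.38 points and neither was called. The same values were found with tiles of at least 2 CpGs, and with the median over tiles the liver and heart difference was 7.37 points and was not called. The tile at the start has 55.7% of its 31-base words more than once in mm10, and without it the mean differences were 7.9 points from liver and 10.1 points from brain. The body, with 3 shared tiles, had levels of 63.8, 68.3 and 60.8% and no call.

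Dppa5a had no tile in its promoter or body. Its 6 upstream tiles on chromosome 9 had tissue means between 61.0 and 98.0%, and averaged 93.0% ± 2.02 over 5 tiles in liver, 85.6% ± 2.51 over 6 tiles in brain and 82.7% ± 2.93 over 6 tiles in heart.

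**Figure D2:**
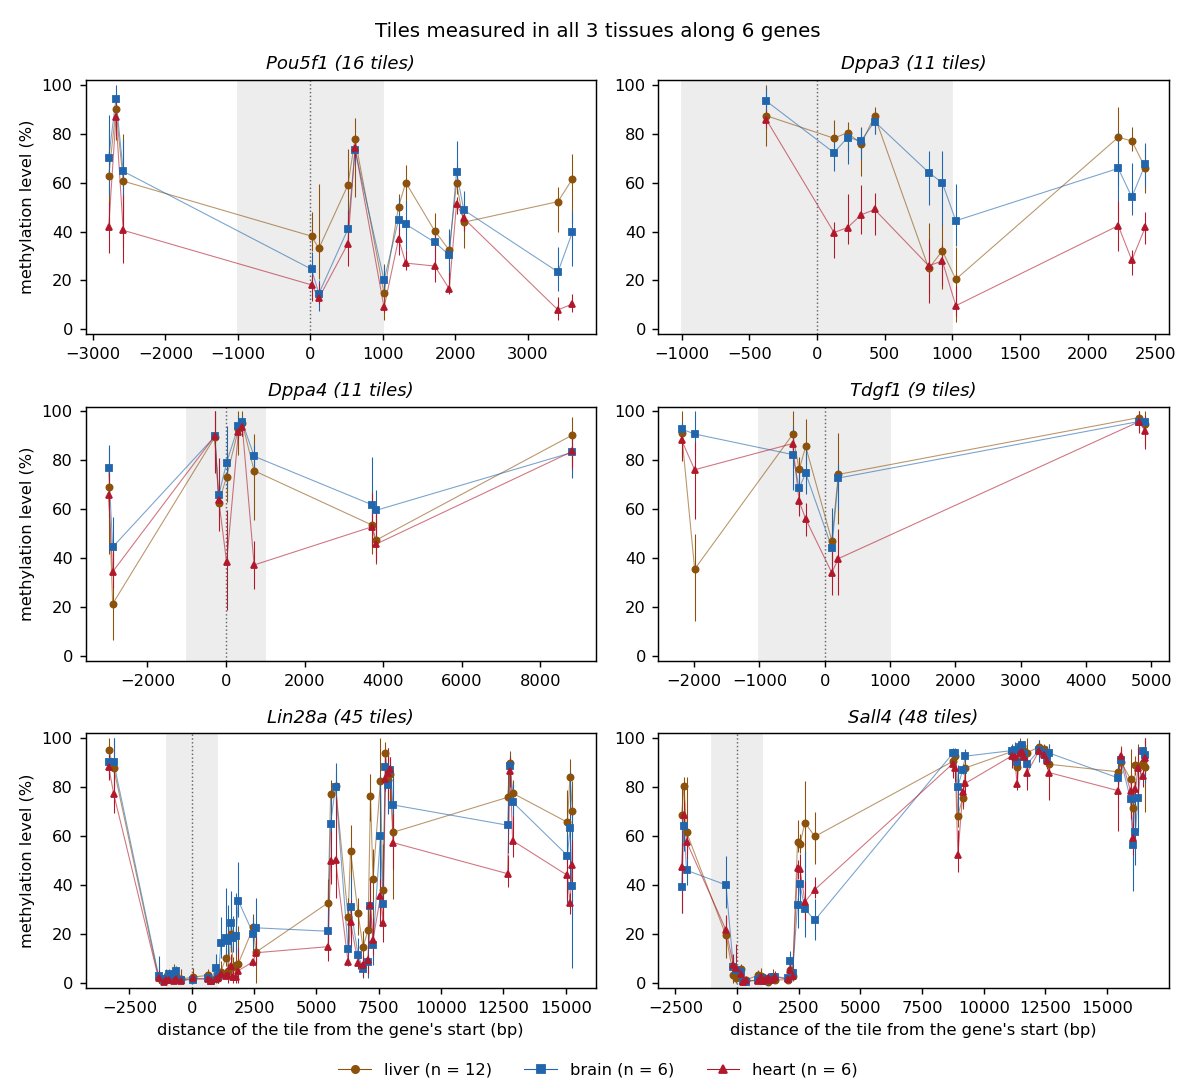
Methylation level (%, vertical axis) of each tile measured in all 3 tissues against its distance from the start of the gene (bp, horizontal axis) in 6 genes, with points for tissue means, bars from the lowest to the highest library and the promoter shaded. After the start, Lin28a and Sall4 show a stretch below 10% that ends between 1000 and 2451 bp into the gene. The Sall4 tile 449 bp before the start is at 19.5% in liver, 40.1% in brain and 21.7% in heart. Dppa3 shows heart near 40% where liver and brain are near 80%.

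Tdgf1, on chromosome 9, was methylated at its promoter in all tissues and lowest in heart. Over 5 shared tiles the promoter level was 68.5, 75.7 and 79.9% in liver (lowest, median and highest library), 63.2, 68.6 and 74.0% in brain and 52.9, 55.9 and 59.8% in heart. Heart lay below all other libraries, by 18.7 points from liver (SE 1.69, adjusted p = 8.6e-10) and by 12.5 points from brain (SE 1.96, adjusted p = 1.2e-05), whereas liver and brain overlapped. With a promoter of 2000 bp on each side the liver and heart difference was 8.84 points and was no longer called, and with tiles of at least 2 CpGs the brain and heart difference was 7.47 points and was no longer called. The tile 208 bp after the start has 74.3% of its 31-base words more than once in mm10, and without it the mean differences were 14.85 points between liver and heart and 7.47 points between brain and heart. That wider window takes in the tile 1992 bp before the start, which had the widest difference of all shared tiles and the opposite direction. Liver libraries had 14.3, 36.9 and 50% there, against 82.6, 91 and 100% in brain and 56.2, 77.3 and 87.5% in heart. No liver library reached the lowest heart library, and liver differed from brain by -55.1 points (SE 4.98, adjusted p = 7.0e-10) and from heart by -40.6 points (SE 4.98, adjusted p = 1.6e-07). The 2 shared body tiles were at 96.1% in liver, 95.9% in brain and 93.9% in heart.

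Lin28a, on chromosome 4 from 134003330 to 134018816 and read from the reverse strand, was unmethylated at its start in every library. Its 8 promoter tiles had tissue means between 0.8 and 6.2%, and the promoter level stood at 2.45% ± 0.72 in liver, 2.86% ± 0.79 in brain and 1.31% ± 0.32 in heart. The unmethylated stretch reached back to the tile 1334 bp before the start, at 2.2, 3.1 and 1.9%, and the tiles 3134 and 3334 bp before the start were at 77.3% or more. Within the gene it ended at different places. From 1166 to 1866 bp after the start, 7 tiles had means of 16.3 to 33.6% in brain, 4.6 to 20.1% in liver and 2.5 to 7.2% in heart, and 1 of them, at 1866 bp, was called higher in brain than in liver (liver minus brain -25.6 points, SE 2.98, adjusted p = 7.0e-08) and in heart (28.5 points, SE 3.45, adjusted p = 2.3e-07). These tiles were singled out after their values were seen.

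Deeper in Lin28a, liver was the higher tissue. The body level over 32 shared tiles stood at 45.7% ± 1.39 in liver, 40.1% ± 1.90 in brain and 30.1% ± 1.04 in heart. Liver exceeded heart by 15.7 points (SE 0.76, adjusted p = 5.3e-15), and brain exceeded heart by 9.99 points (SE 0.88, adjusted p = 5.9e-10), just under the 10 points required. When 1 library was left out, this difference came to between 10.03 and 10.52 points and was called for 7 of the 12 brain and heart libraries. With centred libraries the liver and heart difference was 9.11 points and was not called. At the intron tile 7166 bp after the start, shown above, liver libraries had 66.2, 79.9 and 85.5%, brain libraries 26.7, 30.5 and 41.0% and heart libraries 21.7, 30.5 and 42.1%. Liver lay above both without overlap, by 44.9 points from brain (SE 3.28, adjusted p = 1.1e-11) and by 44.7 points from heart (SE 3.28, adjusted p = 1.4e-11). At the intron tile 7566 bp after the start the means were 82.6% in liver, 60.2% in brain and 35.4% in heart.

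In the last exon of Lin28a the brain libraries differed widely among themselves. At the tile 15266 bp after the start, which has 1 CpG, the 6 brain libraries were at 6.0, 9.1, 40, 45.1, 66.7 and 69.9%, and at the next tile, 15166 bp after the start, those same libraries were at 38.6, 50.7, 78.9, 64.1, 86.7 and 61.0%. The 2 lowest libraries were the same at both tiles. The tile at 15266 bp was singled out after its values were seen. The SD in brain was 27.4 points at the first tile, against 7.2 in liver and 7.1 in heart, and the median SD in brain over tiles with a level between 20 and 80% was 8.0 points for the 82 such tiles of the 10 genes and 8.6 points for all tiles. At the second tile, liver had 74.4, 83.9 and 91.7% and heart 28.3, 32.8 and 37.0%, with no overlap and a difference of 51.7 points (SE 4.57, adjusted p = 4.8e-10).

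Sall4, on chromosome 2 from 168748332 to 168767201 and also read from the reverse strand, had an unmethylated start and a methylated body. Over 8 shared tiles its promoter stood at 4.90% ± 0.91 in liver, 7.60% ± 1.44 in brain and 5.52% ± 0.58 in heart. The lowest tile, 251 bp after the start, was at 1.3, 0.7 and 0.6%. The highest, 449 bp before the start, was at 19.5% ± 4.3 in liver, 40.1% ± 9.3 in brain and 21.7% ± 3.7 in heart, where the lowest brain library, at 30.6%, was above the highest liver library at 26.5%. From the start to 2251 bp after it no shared tile had a tissue mean above 9.1%, and at 2551 bp the means were 56.8% in liver, 40.3% in brain and 46.5% in heart. Between 2451 and 3151 bp, 3 of 4 tiles were called higher in liver than in brain, by 25.7, 35.3 and 34.2 points, against 5.04% of all tiles. This stretch was singled out after its values were seen. The body as a whole, with 37 shared tiles, was at 64.7% ± 0.94 in liver, 61.3% ± 1.19 in brain and 60.1% ± 1.34 in heart and was not called.

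**Figure D3:**
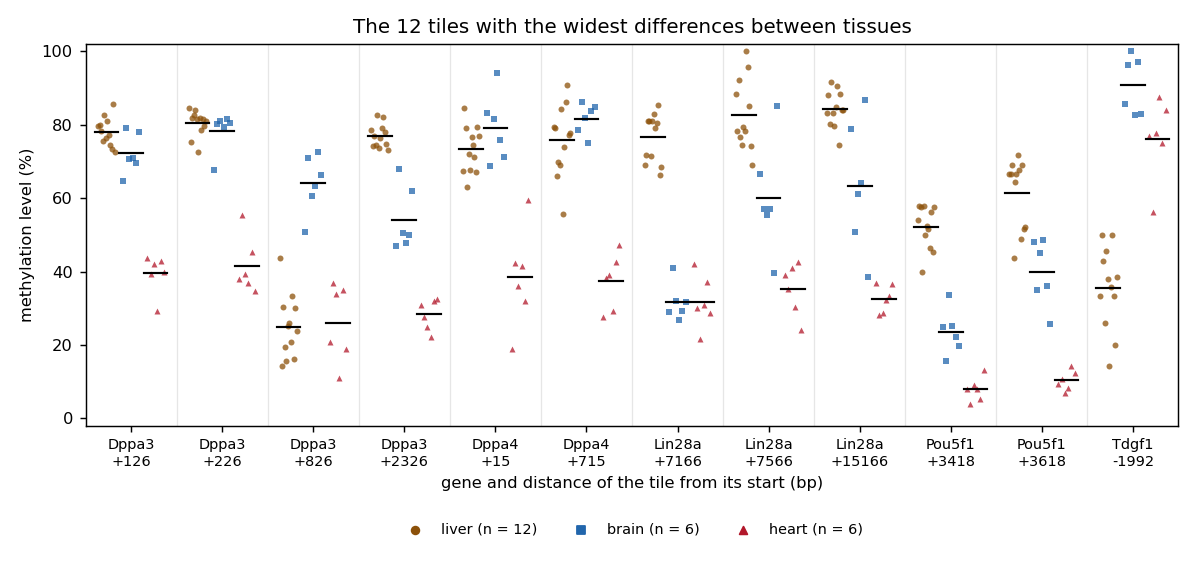
Methylation level (%, vertical axis) in each library of the 12 called tiles with the widest differences between tissues, labelled by gene and distance from its start (bp), with points for libraries (liver n = 12, brain n = 6, heart n = 6) and lines for tissue means. Of all shared tiles, 77.0% are higher in liver than in heart and 69.3% are higher in brain than in heart. Heart is the lowest tissue by its mean in 9 of the 12 tiles. The exceptions are the Dppa3 tile at +826 and the Tdgf1 tile at -1992, where liver is the lowest, and the Lin28a tile at +7166, where brain at 31.6% and heart at 31.8% lie together.

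Of the 8 genes with a promoter level in all tissues, the 2 with the most CpGs near the start had the lowest levels. Lin28a and Sall4 have 81 and 94 CpGs within 1000 bp of the start, and the median gene with a start has 58. Dppa2 and Dppa4 have 26 and 27, Dppa3 and Pou5f1 have 44 each, and genes of 40 to 49 CpGs had a median promoter level of 27.3% in liver. Tdgf1 has 71 CpGs and a liver level of 74.8%, above the 90th percentile of 22.6% among the 1639 genes with 70 to 79 CpGs. Zfp42 has 50 CpGs and a liver level of 85.8%, above the 90th percentile of 71.1% among the 1246 genes with 50 to 59 CpGs. Both stood above that percentile in brain and heart as well. Zfp42 lies at the edge of its bin, and the 90th percentiles among genes with 40 to 49 CpGs, at 88.8% in liver, 87.5% in brain and 82.7% in heart, were above its levels.

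**Figure D4:**
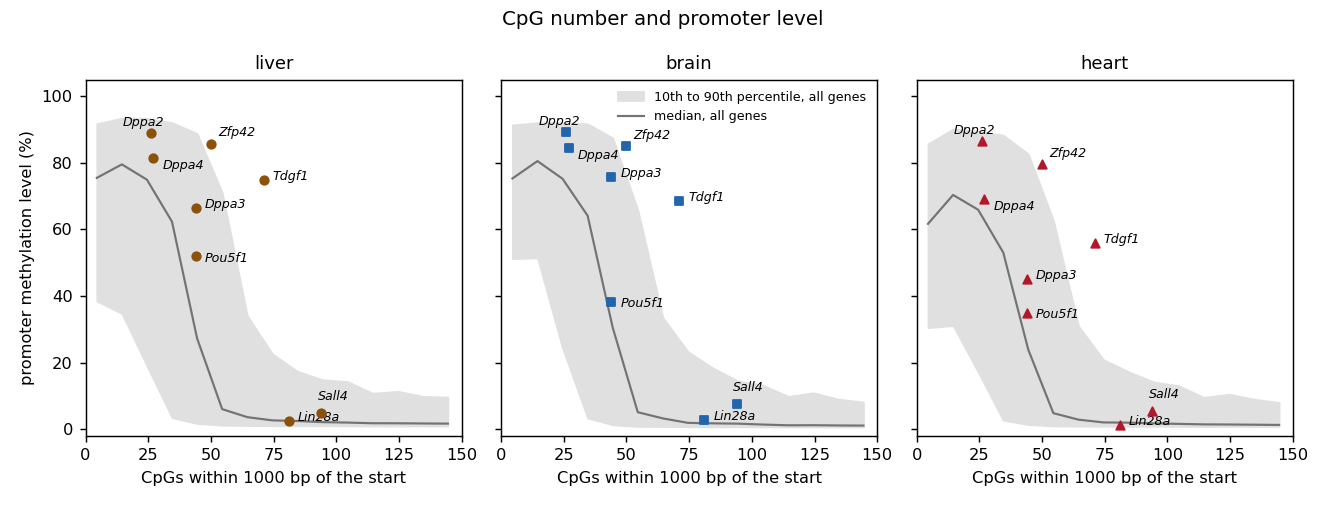
Promoter methylation level (%, vertical axis) against the number of CpGs within 1000 bp of the start (horizontal axis) in liver, brain and heart. Points are tissue means of the 8 genes with shared promoter tiles, the grey line is the median of all genes in bins of 10 CpGs and the grey band runs from the 10th to the 90th percentile. Tdgf1 and Zfp42 lie above the band in each tissue.

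The closest promoters among the 14904 with at least 3 shared tiles were sought by the root mean square difference over the 24 libraries. They were Hvcn1 (3.87 points) and Fut1 (4.5 points) for Pou5f1, Hormad1 (2.59) and F930017D23Rik (2.75) for Zfp42, Prr29 (4.26) and Mhrt (4.37) for Dppa3, Defb29 (3.75) and Clca2 (3.89) for Dppa4, and Mgp (3.99) and Angpt4 (4.83) for Tdgf1. Hormad1 encodes a meiotic chromosome protein, and its promoter was at 87.4% in liver, 85.5% in brain and 78.8% in heart.

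A list of 28 other genes of the pluripotency network differed in level from the 10 genes. Of the 26 promoters measured, 19 were below 20% in liver, 18 in brain and 19 in heart, among them Sox2, Klf4 and Mycn, and 5 were above 50% in liver. Of the 8 measured promoters of the 10 genes, 2 were below 20% in each tissue and 6 were above 50% in liver. Of the 26 promoters of the list, 2 were called higher in liver than in brain (5.13% of all promoters) and 4 higher in brain (5.72%). Against heart, 6 were higher in liver (8.91% of all) and 6 higher in brain (9.04%). Heart was higher for 1 promoter against liver (3.07% of all) and for none against brain (1.74%). The median promoter difference of the list was 0.31, 0.94 and 0.66 points, against 0.36, 0.46 and -0.0083 points over all promoters.

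The widest promoter difference in the list was that of Gdf3, a growth factor gene next to Dppa3 on chromosome 6. Its libraries had 48.4, 76.4 and 84.1% in brain (lowest, median and highest), 29.3, 37.4 and 43.1% in liver and 14.9, 18.2 and 23.4% in heart, with no overlap and a brain and heart difference of 50.3 points (SE 4.46, adjusted p = 1.5e-09). With the median over tiles the Gdf3 difference between liver and heart was 11.2 points and was not called. Tdh, which encodes threonine dehydrogenase, was lower in liver (19.9%) than in brain (47.9%) and heart (44.5%). Nodal, which encodes the ligand that needs Tdgf1, was at 21.1% in liver, 6.53% in brain and 3.34% in heart. Its inhibitors Lefty1 and Lefty2 were at 52.4 and 59.2% in liver, 52.0 and 41.3% in brain and 38.3 and 42.1% in heart, and Dnmt3l, a cofactor of de novo methylation, was at 72.8, 77.2 and 58.2%. With a promoter of 2000 bp on each side, the liver and heart differences of Lefty1 (5.03 points) and Lefty2 (4.93 points) and the brain and heart difference of Dnmt3l (9.52 points) were no longer called.

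Of the 27 bodies of that list, 3 were higher in liver than in brain (10% of all bodies) and 3 higher in brain (8.34%). Against heart, 2 were higher in liver (22.4% of all) and 4 higher in brain (18.5%). Heart was higher for none against liver (4.68% of all) and for 1 body against brain (2.53%). Klf2, a Krüppel-like factor, had the widest body difference, at 64.9% in liver, 62.7% in brain and 22.2% ± 3.68 in heart, and liver exceeded heart by 42.8 points (SE 1.58, adjusted p = 4.4e-17). Lin28b, the paralogue of Lin28a, was higher in brain (50.8%) than in liver (33.7%) and heart (31.6%), but with a window of 2000 bp the liver and brain difference was -6.53 points and was not called. Tbx3 was lower in brain (11%) than in liver (29.3%) and heart (29.5%), but with the median over tiles the liver and brain difference was 4.36 points and was not called. The bodies of Lefty1, Zfp296 and Mycn were called between liver and brain at -17.3, 15.7 and 13.3 points.

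**Figure D5:**
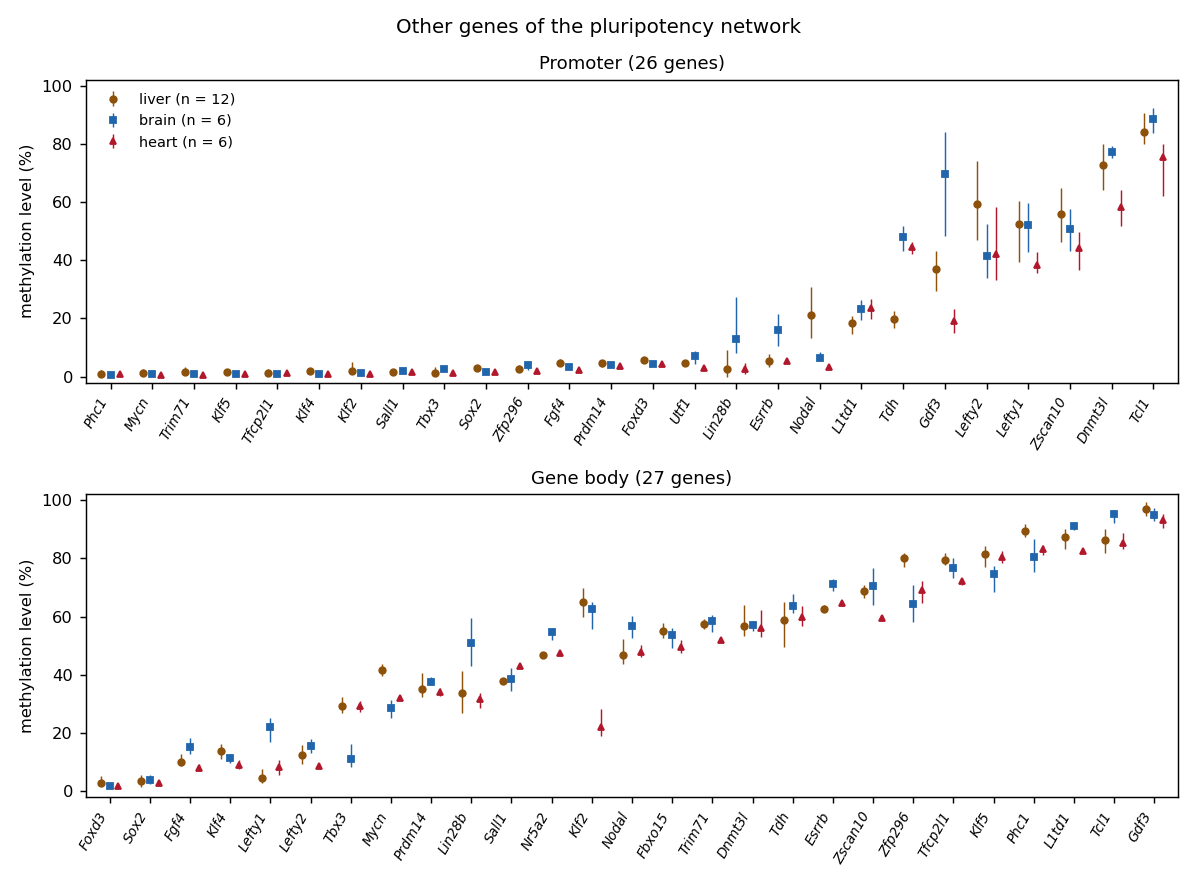
Methylation level (%, vertical axis) of the promoter (26 genes, upper panel) and body (27 genes, lower panel) of other genes of the pluripotency network, ordered by their mean over the tissues. Points are tissue means (liver n = 12, brain n = 6, heart n = 6) and bars run from the lowest to the highest library. Most promoters lie below 20% in every tissue, and Gdf3, Tdh and the body of Klf2 show the widest spread between tissues.

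Promoter levels were high in a list of germline genes and low in a list of housekeeping genes. All 13 germline promoters measured were above 50% in every tissue, with medians of 87.1% in liver, 87.0% in brain and 78.8% in heart. Of these, 2 were called lower in heart than in liver (8.91% of all promoters) and 2 lower in heart than in brain (9.04%). Among all promoters with a mean level between 30 and 90%, these shares were 36.2 and 35.9%. All 7 housekeeping promoters measured were below 20%, with medians of 1.94, 1.47 and 1.73%, and none was called. The median over the 8 promoters of the 10 genes lay between these, at 70.7% in liver, 72.2% in brain and 50.7% in heart. The 8 promoters were spread widely around it. In each tissue 2 of them were below 20%, and Dppa2 was above the germline median.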

How the data were processed

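RRBS libraries had been prepared, sequenced and mapped to mm10 by a sequencing service, and the submitters' processing notes name Bismark and methylKit. The authors combined CpGs in tiles of 100 bp, kept tiles with more than 10 reads in every replicate of a tissue and below a high percentile of coverage, and deposited 1 table per tissue with a methylation level per library as a fraction from 0 to 1, without read counts. Read depth is therefore unknown, and no counting error could be given. Fractions were multiplied by 100. All 24 columns carry running numbers and were tied to a tissue by their table only. For 2 mouse numbers the labels give opposite genders in different tissues.

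Genes were curated RefSeq genes on autosomes of mm10 (24963 genes), with the outermost curated start, and a tile belonged to a region by its midpoint. Tissues were compared with limma 3.58.1 (R 4.3.3) with trend and robust moderation and all 24 libraries in 1 fit, over all shared tiles or all genes, with Benjamini-Hochberg adjustment over all of them. The fit was tested on simulated data. The p-values measure the spread between libraries. The table differences assume that levels of separately filtered tables can be compared. Named were all 10 genes, the lowest and highest promoter tile of each, the 12 called tiles with the widest differences, the 6 other pluripotency genes with the widest called promoter and body differences, and the 2 promoters closest to each member above 20%. The members, lists and rules were chosen with earlier results of these data known. Alternatives were other promoter windows, medians over tiles, a minimum of 2 CpGs, all curated starts, tiles shared by 2 tables, centring, a logit scale, 10 points for tiles, other moderation, and each library left out in turn. Leaving out tiles of repeated sequence was added after seeing the data.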

Additional observations from a re-analysis of the deposited data

Results flagged for a closer look

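In the brain and heart groups of 6 libraries, 1 library stood apart from the others by Dixon's criterion in 8 of 104 sets of values tested, and chance alone flags about 1 in 20. At the Dppa3 promoter 1 brain library was at 66.04%, against 76.03% in the next, and the same library was at 67.7% at the Dppa3 tile 226 bp after the start (122626601), against 79.5% in the next. A second brain library was at 41% at the Lin28a tile 7166 bp after the start, against 32% in the next, and at 1.4% at the Sall4 tile 251 bp after the start, against 0.7%. Yet another brain library was at 76.27% over the upstream tiles of Dppa4, against 67.53%. In heart, 1 library was apart in 3 sets: it was at 64.21% over the 7 Tdgf1 promoter tiles measured in heart, of which 5 were shared with the other tissues, against 58.4% in the next, at 18.8% at the Pou5f1 first exon tile, against 12.7%, and at 29.2% at the Dppa3 tile 126 bp after the start, against 39.4%.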

How the results depend on the processing

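No paired analysis was possible because the columns of levels carry no mouse number. The 12 widest tile differences kept their direction and their call under every alternative run that held the tile. The Dppa4 tile 715 bp after the start, with 1 CpG, was not in the run with at least 2 CpGs. The cutoff of 10 points could not remove a call. On the logit scale only the adjusted p was refitted, and the differences in points were kept. Leaving out repeated sequence drops the Dppa3 tiles at 126 and 2326 bp and the Dppa4 tile at 15 bp. With 10 points in place of 25, 48, 60 and 55 tiles were called for liver minus brain, liver minus heart and brain minus heart, against 13, 23 and 18, which is 25.9, 32.4 and 29.7% of the tiles of the 10 genes and compares with 24.7, 28.9 and 27.6% of all tiles. With centred libraries 15 and 7 were called in the comparisons with heart (8.11 and 3.78%, against 8.3 and 7.17% of all tiles). With at least 2 CpGs per tile, 2 of 8 promoters were called for liver minus brain (25%, against 10.1% of all promoters). For brain minus heart 1 was called (12.5%, against 9.35% of all). The main setting had called 1 and 3. With a window of 2000 bp, and with the median over tiles, 4 of 9 bodies were called for liver minus brain, in place of 1. That is 44.4%, against 17.9 and 19.3% of all bodies. The added ones were those of Pou5f1, Lin28a and Dppa3. When each library was left out in turn, the called promoters numbered 1 to 2, 4 to 4 and 3 to 3 in the order above, and the called bodies 1 to 1, 3 to 3 and 3 to 4. With every library kept, 10.8, 12 and 10.8% of all promoters and 18.4, 27.1 and 21% of all bodies were called.

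The promoter and body differences of the named genes were recomputed 516 times under these settings other than leaving out a library, and 462 kept direction and call, 22 lost the call, 11 gained it and 21 reversed. A called one that reversed was the Lefty2 promoter, which rests on 1 tile, at -1.04 points for liver minus brain with a window of 2000 bp. The others had not been called in the comparisons reported above. For liver minus brain they were the promoters of Lin28a (0.72), Dppa3 (0.56) and Zfp42 (-4.08) and the body of Dppa3 (-9.44) with a window of 500 bp, the promoters of Zfp42 (-0.69) and Tdgf1 (-4.04) with 2000 bp, the Dppa3 promoter (0.62) with the median over tiles, the Dppa2 body (0.39) with at least 2 CpGs and the Tdgf1 body (-0.62) with centred libraries. For liver minus heart they were the Sall4 promoter (0.15) with the median over tiles, the Nanog body (-3.15) with at least 2 CpGs, and, with centred libraries, the bodies of Dppa4 (-3.57), Dppa2 (-0.20), Sall4 (-1.96), Nanog (-6.15), Zfp42 (-2.44) and Tdgf1 (-4.30). For brain minus heart they were the Lin28a promoter (-0.13) with 500 bp and the bodies of Sall4 (-4.52) and Tdgf1 (-3.68) with centred libraries. Centring moves every body difference of a comparison by the same number of points, so small differences can change sign. The window of 2000 bp adds to the Tdgf1 promoter the tile 1992 bp before the start, at -55.1 points for liver minus brain. The cause of the other changes was not tested. With 1 library left out, uncalled differences changed sign for the promoters of Dppa2 (-1.06 to 0.20) and Zfp42 (-0.21 to 1.85) and the bodies of Dppa2 (-2.86 to 0.27) and Tdgf1 (-0.11 to 0.66) for liver minus brain, and for the Nanog body (-0.17 to 1.49) for liver minus heart. The body of Zfp296 was called between liver and heart at 10.7 points and not without 1 heart library, at 9.82, nor with a window of 500 bp (8.89) or 2000 bp (7.7), the median over tiles (9.57), at least 2 CpGs (8.74) or centred libraries (4.20), and the Lefty1 body lost its call between brain and heart with centred libraries (8.08). Of 210 recomputed levels of a promoter or body, 86 moved by more than 1 SD between libraries. The unknown depth limits all levels, most of all in tiles with 1 CpG.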
